A study of Ovis aries with 9 samples.

Results

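Mature miRNAs of ram sperm were found with extra bases at their 3′ end, nearly always A, and the tailed reads came mainly from miR-21 and miR-100. The series, whose title names the nutrition of the mothers in gestation, sequenced small RNA of sperm from F1 rams labelled with over feeding (OVER), restricted feeding (RES) or standard feeding (CON). All rams are labelled WT, no age is given, and the sperm, taken from semen, had gone through a detergent step against somatic cells. Labels name 3 samples a group, 9 in all, but within a group the 3 tables were identical in their sequences and reads, and the labels do not say whether a table is 1 ram or a pool. Each group therefore counts as 1 library, with no replicate and no test. Every interval given is an exact 95% Clopper-Pearson interval, or one built on the binomial for a ratio. It covers the counting error of reads only, not the spread between rams or libraries. The reads carry no molecular identifiers, so copies of a molecule count as separate reads and the intervals can be too narrow. The libraries held 8287937 reads in OVER, 13160116 reads in RES and 9983895 reads in CON.

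A tailed miRNA was a sequence without annotation and without a genome match that became an annotated miRNA of 20 to 24 nt once 1 to 4 identical bases were taken off its 3′ end. That shorter sequence, here called the parent, had to have 100 reads or more in the same library. Where several parents were possible the longest was taken. The rule found 654 tailed sequences in OVER, 742 in RES and 608 in CON, 1036 different ones out of 3309646 different sequences in the series. They came from 275 of 518 parents in OVER, 302 of 493 in RES and 244 of 399 in CON. Parents that share 18 bases were joined into miRNAs, which gave 147 miRNAs, and a tailed sequence was found for 92 of 130 in OVER, 88 of 115 in RES and 83 of 101 in CON. Members were thus chosen by measured values, the read counts, annotation and genome flag of each library, so all that follows is a description of them.

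Cells can extend a finished miRNA without a template. Terminal nucleotidyltransferases do this: TENT2 (also called GLD2) and PAPD5 add A, and TUT4 and TUT7 add U, which is written as T in sequencing data. In human cells PAPD5 adds A to miR-21, after which the exonuclease PARN trims it. The seed, the stretch near the 5′ end that pairs with target mRNAs, is not touched by such a tail. Tails have been tied to both the stabilisation and the decay of miRNAs, depending on the base and the miRNA.

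The 3 leading tailed sequences carried 71.9% of all tailed reads in OVER, 73.4% in RES and 67.2% in CON, and they are shown with other abundant ones. The bases in capitals are those beyond the parent.
miR-21, 1 A: tagcttatcagactgatgttgaaA
miR-100, 2 A: aacccgtagatccgaacttgtgaAA
miR-100, 1 A: aacccgtagatccgaacttgtgaA
miR-128, 1 A: tcacagtgaaccggtctctttaA
miR-16b, 1 A: tagcagcacgtaaatattggagaA
miR-125b, 1 A: tccctgagaccctaacttgtgaaA
miR-27a, 2 A: ttcacagtggctaagttctgaAA
The miR-21 sequence had 30836 reads in OVER, 37141 in RES and 14631 in CON, more than its own parent, which had 10618 reads in OVER, 8985 in RES and 4350 in CON. The miR-100 sequence with 2 added bases had 6947 reads in OVER, 37670 in RES and 14968 in CON, and the one with 1 added base had 6984 in OVER, 23841 in RES and 10880 in CON. Their common parent had 12371 reads in OVER, 24929 in RES and 13049 in CON. Names here follow the known mature sequences where the files give only the term miRNA, and 24 of the 147 miRNAs were named that way. The miRNA called miR-100 carries the name oar-mir-99a in the files, but its sequence is that of miR-100.

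The genome flag decides what counts as untemplated, and it is not strict. Among sequences that differ from 1 of the 20 leading parents by a single wrong base, the files flag 79.2% in OVER, 83.9% in RES and 83.8% in CON as genome matches. With 2 wrong bases the flag is given to 14.1% in OVER, 11.02% in RES and 20.6% in CON. A single untemplated base can therefore pass as a match, and a parent can itself end in one. For example, the miR-148a sequence with 1 added A had 552 reads in OVER, 837 in RES and 330 in CON and is flagged as a match, while the one with 2 added A bases had 70 reads in OVER, 129 in RES and 46 in CON and is not. Flagged additions do not count as tails. With 100 reads or more they count as parents, as the miR-148a sequence with 1 added A does, and a further A on it then counts as a tail of 1 base. No genome was used here, so the base that follows each miRNA in the sheep genome was not read.

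Tails made up 4.69% of tailed plus parent reads in OVER (4.65 to 4.72%), 9.05% in RES (9.003 to 9.10%) and 7.39% in CON (7.33 to 7.45%). These shares rest on 62254 tailed reads in OVER, 134385 in RES and 60225 in CON, which made up 0.751% of the library in OVER, 1.02% in RES and 0.603% in CON. The members found in every group, 377 in number, held 97.5% of the tailed reads in OVER, 98.5% in RES and 98.9% in CON. Many of the others were rare: 180 members in OVER, 198 in RES and 158 in CON had a single read. At the read limit, the parents just inside had 100 to 101 reads in OVER, 100 to 103 in RES and 100 to 103 in CON, and those just outside had 99 in OVER, 98 to 99 in RES and 97 to 99 in CON. In the band of read counts next below the limit, the tail share was 16.0% in OVER, 21.4% in RES and 23.0% in CON. In the band next above it, it was 14.4% in OVER, 23.1% in RES and 13.8% in CON. The shares given here therefore depend on the limit.

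A was the added base in 91.7% of tailed reads in OVER, 96.0% in RES and 94.7% in CON. T followed with 7.08% in OVER, 3.20% in RES and 4.52% in CON. G made up 0.956% of tailed reads in OVER, 0.589% in RES and 0.684% in CON, and C was below that in every group, with 0.239% in OVER, 0.168% in RES and 0.133% in CON. Without miR-21 and miR-100 the share of A was smaller, at 64.2% in OVER, 77.9% in RES and 77.7% in CON, and T then held 31.2% in OVER, 18.3% in RES and 19.1% in CON. A tails occurred on 78 miRNAs in OVER, 80 in RES and 72 in CON, and T tails on 56 in OVER, 52 in RES and 54 in CON.

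Tails were short. A single added base accounted for 76.5% of tailed reads in OVER, 58.6% in RES and 57.1% in CON, and a pair of bases for 21.8% in OVER, 39.0% in RES and 39.5% in CON. Tails of 3 bases held 1.61% in OVER, 2.23% in RES and 3.11% in CON, and tails of 4 bases held 0.0996% in OVER, 0.173% in RES and 0.264% in CON. Without miR-21, whose tails are mainly 1 base, and miR-100, whose tails are often 2, a single base held 65.7% of tailed reads in OVER, 71.4% in RES and 61.5% in CON, so the order of the groups in tail length rests on those miRNAs. Most tailed reads ended in a run of 3 equal bases once the last bases of the parent are counted, at 67.9% of tailed reads in OVER, 63.1% in RES and 57.9% in CON. A run of 4 or more was rare: a run of 4 held 2.65% of tailed reads in OVER, 3.06% in RES and 3.71% in CON.

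**Figure D1:**
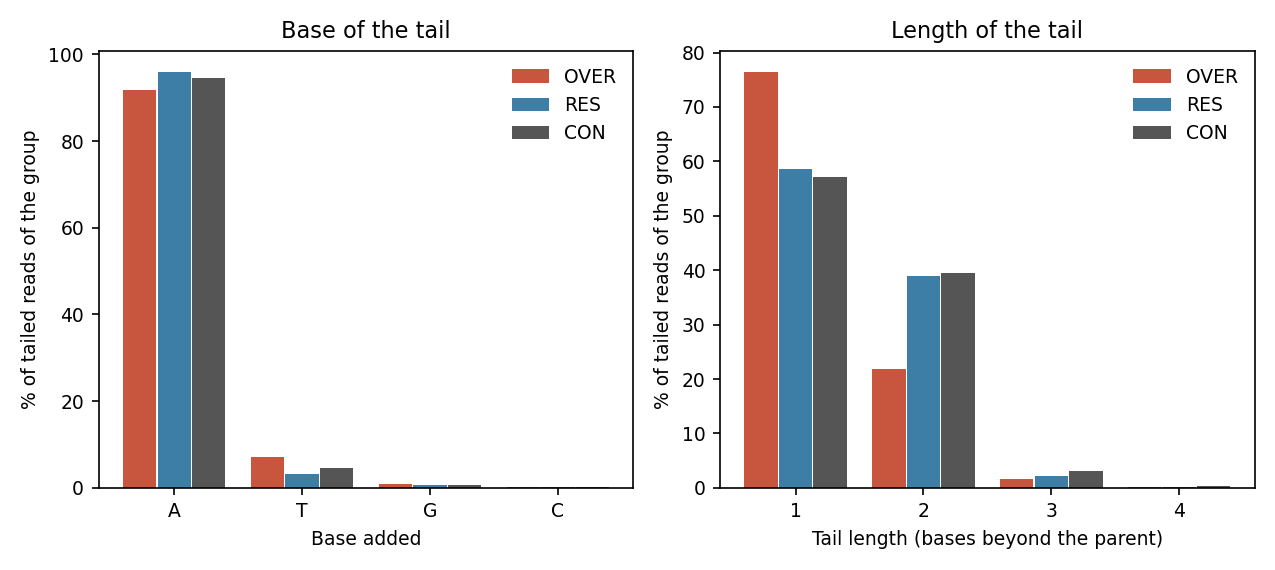
Base (left) and length beyond the longest parent (right) of the tails, as a percentage of the tailed reads of each group. There is 1 library a group and so no error bars. A makes up 91.7% in OVER, 96.0% in RES and 94.7% in CON, and tails of 2 bases make up 21.8% in OVER, 39.0% in RES and 39.5% in CON.

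Unmatched added bases were found mainly at the 3′ end, but the ends may not be counted alike. As the flag tolerates a wrong base, a single added base can pass as a match and go uncounted. At the 3′ end, the leading parents of miR-21 and miR-100 already end in an A that their most abundant forms lack. The part of this in the figures for the ends was not tested. A single unmatched base in front of the 5′ end of a parent was seen in 127 reads in OVER, 230 in RES and 114 in CON, against 47629 reads in OVER, 78768 in RES and 34385 in CON with a single tail base at the 3′ end, which is 375 times as many in OVER, 342 times in RES and 302 times in CON. At the 5′ end C led, with 88 reads in OVER, 146 in RES and 69 in CON, and A had 7 in OVER, 9 in RES and 2 in CON. Among all unmatched ends of 2 bases, 89.2% of reads in OVER, 92.4% in RES and 90.3% in CON had 2 equal bases. The commonest mixed end was an A followed by a T, with 3954 reads in OVER, 6592 in RES and 4019 in CON. Such a mixed end is a member only where the form with the added A is itself a parent, and then as a T tail.

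Tails sat mainly on parents that already ended in A. Parents with a last A held 12.96% of parent reads in OVER, 11.8% in RES and 12.2% in CON, and they carried 89.8% of tailed reads in OVER, 92.8% in RES and 88.9% in CON. Their tail share was 25.4% in OVER, 44.0% in RES and 36.7% in CON. Parents that ended in T had a tail share of 0.936% in OVER, 1.23% in RES and 1.84% in CON, those that ended in G had 0.350% in OVER, 0.385% in RES and 0.467% in CON, and those that ended in C had 0.149% in OVER, 0.181% in RES and 0.0848% in CON. On the parents that ended in A, the tail repeated the A in 95.6% of tailed reads in OVER, 97.7% in RES and 96.5% in CON. With a flag that tolerates a wrong base, it was not determined whether that last A is itself templated. The parents of the leading miR-21 and miR-100 tails differ at that base from the most abundant form of each miRNA. That form has a C there in miR-21 and a T in miR-100. Where a form with such an A passes as a parent, a further A is by rule counted on a parent that ends in A.

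**Figure D2:**
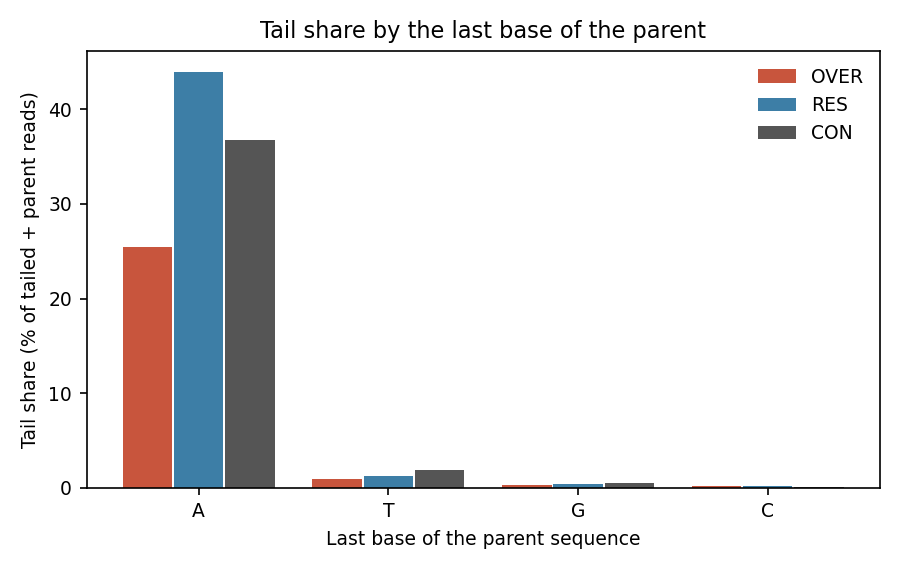
Tail share (tailed reads as a percentage of tailed plus parent reads) by the last base of the parent sequence in OVER, RES and CON, 1 library a group. Parents ending in A stand at 25.4% in OVER, 44.0% in RES and 36.7% in CON, and every other class stays below 2% in every group.

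The most abundant tailed sequences of miR-21, miR-100 and miR-125b shared an end of G and 3 A bases. This end, gaaa, was carried by 66.1% of tailed reads in OVER, 61.6% in RES and 55.9% in CON, on 43 miRNAs in OVER, 42 in RES and 40 in CON. It was noticed in the list of leading sequences and then counted. Without miR-21 and miR-100 it held 18.9% of tailed reads in OVER, 19.6% in RES and 20.2% in CON. The sequences of miR-21, miR-100 and miR-125b are given with their runs of A in capitals, since the reads were counted by length of the run.
miR-21, run of 2: tagcttatcagactgatgttgAA
miR-21, run of 3: tagcttatcagactgatgttgAAA
miR-21, run of 4: tagcttatcagactgatgttgAAAA
miR-100, run of 2: aacccgtagatccgaacttgtgAA
miR-100, run of 3: aacccgtagatccgaacttgtgAAA
miR-100, run of 4: aacccgtagatccgaacttgtgAAAA
miR-125b, run of 3: tccctgagaccctaacttgtgAAA
For miR-21, an abundant miRNA of many tissues, a run of 3 held 9.35% of the reads that start with the 21 bases in front of the run in OVER (9.25 to 9.45%), 16.03% in RES (15.9 to 16.2%) and 7.42% in CON (7.30 to 7.53%). A run of 2 held 3.22% in OVER, 3.88% in RES and 2.20% in CON, and a run of 4 held 0.184% in OVER, 0.315% in RES and 0.195% in CON. Among runs of 0 to 4 A bases, the run of 3 was the most frequent in every group, and a run of 4 was far rarer.

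For miR-100, a member of the miR-10 and miR-99 family, a run of 3 held 5.28% of the reads with its 22 leading bases in OVER (5.16 to 5.40%), 11.7% in RES (11.6 to 11.8%) and 10.3% in CON (10.2 to 10.5%). A run of 2 held 5.31% in OVER, 7.40% in RES and 7.52% in CON, and a run of 4 held 0.189% in OVER, 0.568% in RES and 0.599% in CON. The run of 3 was above the run of 2 in RES and CON, and in OVER the intervals of the pair overlap. Shorter ends were also frequent: no A after the last G was found in 32.7% of these reads in OVER, 30.7% in RES and 28.0% in CON, and a single A in 9.40% in OVER, 7.74% in RES and 9.02% in CON. miR-125b, which shares its last bases with miR-100, had a run of 3 in 13.5% of its reads in OVER (11.9 to 15.2%), 28.8% in RES (27.3 to 30.5%) and 30.1% in CON (27.9 to 32.3%). A single A held 35.1% in OVER (32.8 to 37.4%), 24.7% in RES (23.2 to 26.3%) and 27.5% in CON (25.3 to 29.7%), and no A held 32.8% in OVER (30.6 to 35.1%), 16.00% in RES and 10.7% in CON. A run of 2 held 16.6% in OVER (14.9 to 18.5%), 26.9% in RES (25.3 to 28.5%) and 26.4% in CON (24.3 to 28.6%). Its interval overlaps that of a run of 3 in every group and that of a single A in RES and CON. The intervals of no A and a single A overlap in OVER, and those of a single A and a run of 3 overlap in CON. A run of 4 was found in 2 reads in OVER, 15 in RES and 13 in CON.

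**Figure D3:**
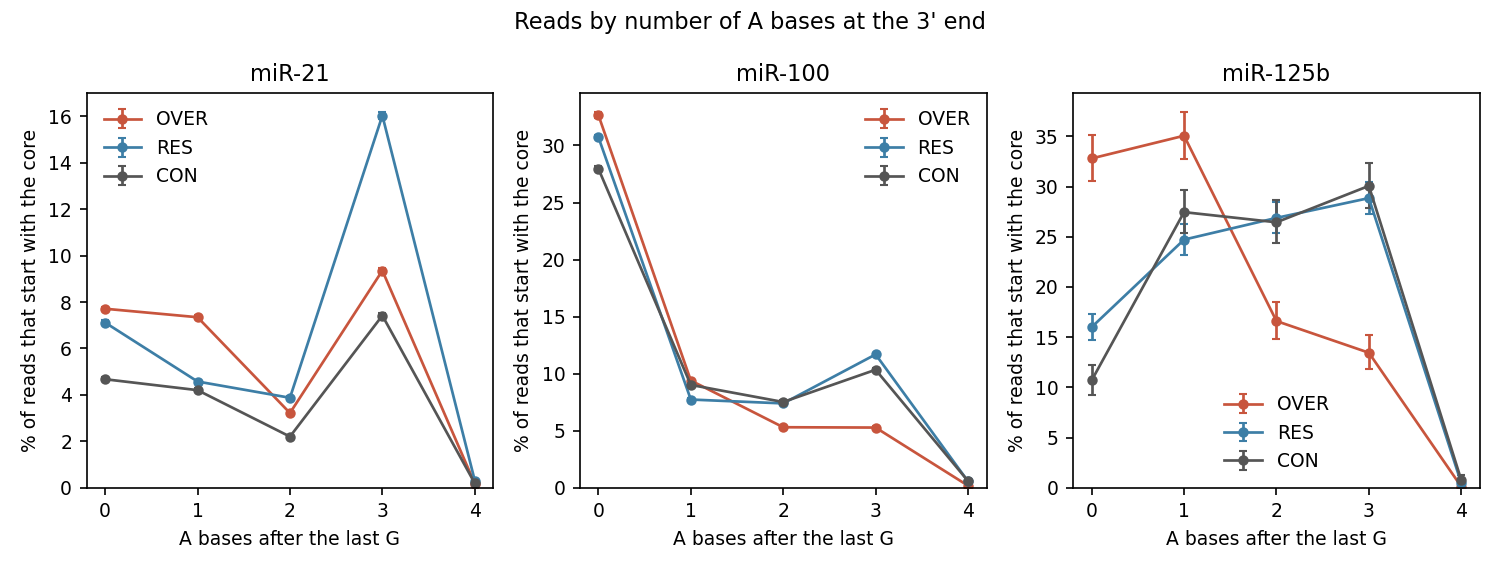
Percentage of reads by the number of A bases after the last G, among reads that start with the core of miR-21, miR-100 or miR-125b, in OVER, RES and CON; bars are exact 95% intervals for counting error. The last point, a run of 4, is below 1% in each panel and group, while a run of 3 reaches 16.03% for miR-21 in RES and 30.1% for miR-125b in CON.

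miRNAs differed widely in tail share, and their order was much alike in the groups. Over the 41 miRNAs with 1000 parent reads or more and a tail in every group, Spearman's rho of the tail shares was 0.947 between OVER and CON, 0.955 between RES and CON and 0.970 between OVER and RES. These values are descriptions over miRNAs, which are not replicates and share their library. Among miRNAs with 1000 parent reads or more in a group, the median tail share was 0.721% in OVER (64 miRNAs), 1.32% in RES (58 miRNAs) and 1.01% in CON (46 miRNAs). Only 5 miRNAs in OVER, 10 in RES and 9 in CON were above 10%. miR-21 and miR-100 together held 77.7% of tailed reads in OVER, 83.9% in RES and 78.0% in CON.

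A high tail share was found for miR-128, a miRNA best known from brain, at 29.1% in OVER, 34.9% in RES and 28.7% in CON. miR-125b had 13.1% in OVER, 28.6% in RES and 30.1% in CON. miR-9, another miRNA known from the nervous system, had 14.9% in OVER, 16.7% in RES and 14.6% in CON. miR-100 stood at 7.25% in OVER, 16.8% in RES and 16.1% in CON, and miR-21 at 9.62% in OVER, 16.5% in RES and 7.69% in CON. Their abundance was very unequal: miR-128 had 3661 parent reads in OVER, 12075 in RES and 7689 in CON, and miR-21 had 298137 in OVER, 193462 in RES and 182051 in CON.

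**Figure D4:**
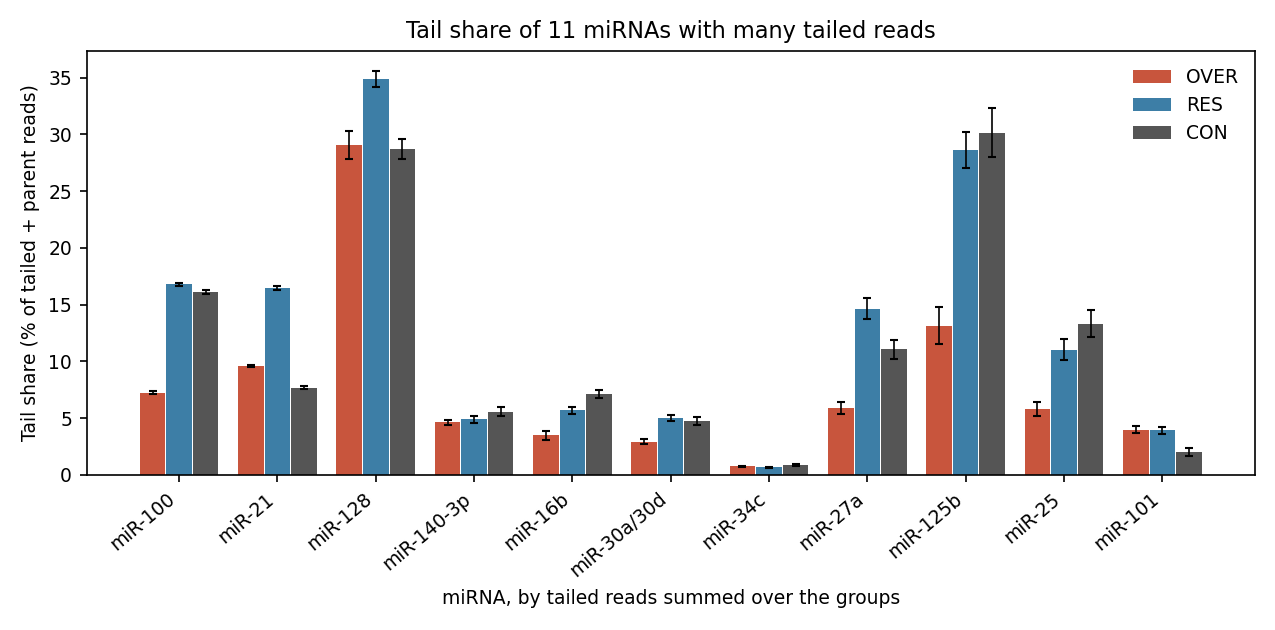
Tail share (tailed reads as a percentage of tailed plus parent reads) of 11 miRNAs with many tailed reads, in OVER, RES and CON; bars are exact 95% intervals for counting error in 1 library a group. miR-128 is high in every group, and miR-100 and miR-125b stand lower in OVER than in RES and CON.

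Some abundant miRNAs had few tails. miR-148a had a tail share of 0.0580% in OVER, 0.0936% in RES and 0.119% in CON, with 158661 parent reads in OVER, 175102 in RES and 50352 in CON. miR-20a, of the miR-17-92 cluster, had no tailed read in any group, which allows a share of up to 0.238% in OVER, 0.265% in RES and 0.267% in CON (3 reads of its parent reads). miR-411a had 0 tailed reads in OVER, 3 in RES and 0 in CON. miR-7 had 3 tailed reads in OVER, 1 in RES and 1 in CON, the unit of miR-30b and miR-30c had 4 in OVER, 7 in RES and 1 in CON, and miR-3958 had 8 in OVER, 24 in RES and 9 in CON. The mature sequences of high and low examples are shown with the seed in capitals.
miR-21: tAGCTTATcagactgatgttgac
miR-100: aACCCGTAgatccgaacttgtgt
miR-128: tCACAGTGaaccggtctcttt
miR-148a: tCAGTGCActacagaactttgt
miR-148b: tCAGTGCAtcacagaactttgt
miR-148a and miR-148b have the same seed but unequal tail shares: miR-148b had 0.923% in OVER, 1.54% in RES and 3.94% in CON.

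Other members carried T tails. Among miRNAs with 100 tailed reads or more, T held the larger part of tailed reads for 5 of 26 in OVER, 7 of 31 in RES and 4 of 22 in CON, and miR-101, miR-140-3p and miR-25 were among them in every group. T members of these 3 miRNAs are shown with the tail in capitals.
miR-140-3p: taccacagggtagaaccacggaaT
miR-25: cattgcacttgtctcggtctgaaT
miR-101: tacagtactgtgataactgacT
The miR-140-3p sequence had 394 reads in OVER, 285 in RES and 167 in CON. That of miR-25, a miRNA of the miR-17-92 paralogs, had 173 reads in OVER, 206 in RES and 200 in CON. The sequences of miR-140-3p and miR-25 share the end gaat. Their parents carry an A beyond the most abundant form of each miRNA, so against that form the end is an A followed by a T. The miR-101 parent ends in a C where its most abundant form has an A. Whether these last bases of the parents are templated was not determined. T tails on miR-184 held 92.7% of its 192 tailed reads in OVER and 92.4% of its 145 in RES, and 67 of its 72 tailed reads in CON were T.

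G and C tails were few. miR-140-3p led the G tails with 206 reads in OVER, 197 in RES and 129 in CON, followed by miR-128 with 56 in OVER, 170 in RES and 76 in CON. miR-34c, a miRNA of male germ cells, had 54 reads with a G tail in OVER, 58 in RES and 56 in CON, and miR-191 had 9 in OVER, 109 in RES and 21 in CON. Reads with a C tail were most numerous on miR-101, with 44 in OVER, 29 in RES and 11 in CON, on miR-100, with 15 in OVER, 40 in RES and 10 in CON, and on miR-21, with 18 in OVER, 29 in RES and 10 in CON. miR-486, an erythroid miRNA, had 33 reads with a C tail in RES and passed the read limit there only.

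Between OVER and CON the tail share was lower in OVER. The log2 ratio of the shares was -0.66 (-0.67 to -0.64), from 4.69% in OVER and 7.39% in CON. A tails carried the difference, with a log2 ratio of -0.70 (-0.72 to -0.69). The pooled share of T tails was nearly equal, 0.332% in OVER and 0.334% in CON, a log2 ratio of -0.01 (-0.08 to 0.06). That near equality depends in part on the read limit. Among T reads, miR-101 held 395 in OVER and 61 in CON, and miR-106b 178 in OVER and 3 in CON. Many of these sit on parents that pass in OVER but not in CON. Tails of 2 to 4 bases alone had a share of 1.14% in OVER and 3.31% in CON, a log2 ratio of -1.54 (-1.57 to -1.51). Without miR-21 the log2 ratio was -1.25, without both leading miRNAs -0.80, and with each parent weighted by its CON reads -0.43. The OVER library was shorter as a whole, with a mean read length of 23.3 nt in OVER against 27.2 nt in RES and 28.5 nt in CON, and the parents of 24 nt held 5.81% of parent reads in OVER, 6.01% in RES and 7.45% in CON. The share of reads no longer than 20 nt was 29.6% in OVER, 10.3% in RES and 5.98% in CON. The part of read length in these differences was not tested.

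Single parent sequences were compared where both libraries together held 20 tailed reads or more. Against CON, OVER had a tail share 2-fold or more below in 44 of 118 miRNA parents and 2-fold or more above in 1. Some of these calls can arise when a longer form passes the read limit in 1 library only and takes the tails. A miR-9 parent had 0 tailed reads in OVER and 141 in CON, and a miR-340 parent 0 and 176. Pooled over parents, these miRNAs stood at 0.03 and -0.39. The 1 above, a miR-128 parent, had 47 tailed reads in OVER and 0 in CON. Over the parents of all RNA classes the figures were 37.7% below, 0.685% above and 38.4% in either direction, so the miRNA parents stood near the background, of which they made up 118 of 146 parents. The median log2 ratio was -0.62 for miRNA parents and -0.65 over all 146. Over whole miRNAs with 100 tailed reads or more in OVER and CON together, 13 of 34 had a share 2-fold or more lower in OVER and 0 a share 2-fold or more higher, with a median log2 ratio of -0.75.

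miR-191, abundant in all 3 libraries, was lowest against CON, with 115 tailed reads and a share of 0.256% in OVER and 459 tailed reads and 1.18% in CON, a log2 ratio of -2.20 (-2.51 to -1.90). miR-148b followed with -2.09 (-2.69 to -1.51), then a miRNA given no name in the files or here, aATCACTAgttccactgccatc with its seed in capitals, whose log2 ratio was -1.51 (-2.07 to -0.96). let-7g, of the let-7 family of differentiation miRNAs, stood at -1.38 (-1.72 to -1.04) and miR-25 at -1.20 (-1.41 to -0.998). miR-100, with 16673 tailed reads in OVER and 31834 in CON, stood at -1.15 (-1.18 to -1.13). These values pool several parent forms of a miRNA, so they also move with the make-up of those forms. On the leading parent alone, the one with most tailed reads, the log2 ratio was -0.77 (-1.37 to -0.20) for miR-191, -1.12 (-1.85 to -0.40) for miR-148b, -0.36 (-1.44 to 0.73) for the unnamed miRNA, -1.52 (-1.89 to -1.15) for let-7g and -0.39 (-0.67 to -0.11) for miR-25. For miR-100, with 14215 tailed reads in OVER and 26806 in CON, it was -0.33 (-0.36 to -0.30). Over the 20 named miRNAs whose leading parent had tailed reads in both libraries, that parent was lower in OVER for 16. Its log2 ratio was closer to 0 than the pooled one for 16, and the median was -0.30 against -0.97 pooled. The leading parent of miR-340, with 0 tailed reads in OVER and 176 in CON, was not counted. The pooled miR-21 had 31727 tailed reads and 9.62% in OVER and 15164 tailed reads and 7.69% in CON, a log2 ratio of 0.32 (0.29 to 0.35). Nearly all these tails sit on the form that ends in gaa, which held 3.56% of the miR-21 parent reads in OVER and 2.39% in CON. On that form the tail share was 74.8% in OVER and 77.6% in CON, a log2 ratio of -0.05 (-0.08 to -0.02), so the sign turns. The leading parents of miR-191, miR-148b, let-7g and miR-25 are longer than the most abundant form of each. Their tail shares are not those of that form. The leading parents of miR-21 and miR-100 end in an A that their most abundant forms lack, so on them the share sets longer against shorter runs of A. Among all reads with the core, a run of 3 held 9.35% in OVER and 7.42% in CON for miR-21. For miR-100 it held 5.28% in OVER and 10.3% in CON.

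The apparent exceptions miR-101 and miR-106b rest on the read limit. miR-101 had 3.96% in OVER and 1.99% in CON, a log2 ratio of 0.99, but its main T member, with 259 reads in OVER and 85 in CON, counts in OVER only, since its parent had 156 reads there and 45 in CON. Over the parents that pass in all 3 groups the log2 ratio of miR-101 was -0.26 (-0.59 to 0.08) and that of miR-106b -1.27 (-1.69 to -0.84), where it had been 0.01. With those 351 parents, 31 of 34 miRNAs had a lower tail share in OVER than in CON. The 3 higher ones were miR-21, miR-9 at 0.16 (-0.11 to 0.43) and miR-128 at 0.02 (-0.07 to 0.11), with the pooled miR-21 at an interval above 0 and its leading parent at one below 0.

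Between RES and CON the pooled share was higher in RES, with a log2 ratio of 0.29 (0.28 to 0.31) from 9.05% in RES and 7.39% in CON, and this rested on the pooled miR-21. Without miR-21 the log2 ratio was 0.07 (0.06 to 0.09), from 7.68% in RES and 7.29% in CON. Without miR-21 and miR-100 it turned to -0.23 (-0.26 to -0.20), from 2.68% in RES and 3.15% in CON, and with parents weighted by their CON reads it was -0.05. T tails were lower in RES, 0.290% against 0.334% in CON, a log2 ratio of -0.20 (-0.27 to -0.13). RES and OVER are both set against the same CON library, so the comparisons are not independent.

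miR-21 was the 1 miRNA of 35 with a tail share at least 2-fold higher in RES than in CON, 16.5% in RES and 7.69% in CON, a log2 ratio of 1.10 (1.07 to 1.13). Its tailed reads were 38173 in RES and 15164 in CON, while its parent reads were 193462 in RES and 182051 in CON. The form that ends in gaa held 4.64% of those parent reads in RES and 2.39% in CON. On that form alone the tail share was 80.9% in RES and 77.6% in CON, a log2 ratio of 0.06 (0.03 to 0.09). That form has an A where the most abundant form of miR-21 has a C, so this share sets longer against shorter runs of A. Among all reads with the miR-21 core, a run of 3 held 16.03% in RES and 7.42% in CON. A run of 2 held 3.88% in RES and 2.20% in CON. The miRNA miR-10b, labelled oar-mir-10a and oar-mir-10b, had 1.72% in RES and 0.975% in CON, at 0.81 (0.30 to 1.34), from 97 tailed reads in RES and 49 in CON. miR-200b and miR-200c, epithelial miRNAs, had 1.16% in RES and 0.781% in CON, and miR-27a had 14.6% in RES and 11.1% in CON. On the leading parent alone, miR-200b and miR-200c stood at 2.16 (1.35 to 2.97), from 28 tailed reads in RES and 28 in CON. miR-10b stood at 0.97 (0.23 to 1.77) and miR-27a at 0.26 (0.05 to 0.46) on theirs. miR-100 was nearly level, 16.8% in RES and 16.1% in CON, at 0.06 (0.04 to 0.08).

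The miRNAs at least 2-fold lower in RES than in CON were miR-148b, at -1.36 (-1.94 to -0.78), and miR-146b, an immune-related miRNA, at -1.12 (-1.55 to -0.68). miR-191 stood at -0.83 (-1.004 to -0.65), miR-184 at -0.74 (-1.16 to -0.31) and miR-378 at -0.62 (-1.07 to -0.15), the last at -0.22 (-0.68 to 0.25) over the parents found in all groups. The median over the 35 miRNAs was -0.17, with 13 higher and 22 lower in RES. Of 125 miRNA parents, 17 had a tail share 2-fold or more below that of CON and 4 one 2-fold or more above, where among the parents of all classes 16.0% were below, 3.07% above and 19.0% in either direction. With the shortest parent in place of the longest, 13 were below and 10 above. Among those below with the longest, a miR-100 parent had 0 tailed reads in RES and 350 in CON, while the pooled miR-100 was nearly level. On the leading parent alone miR-148b stood at -0.77 (-1.50 to -0.04), miR-146b at -0.41 (-1.28 to 0.49) and miR-191 at -0.31 (-0.64 to 0.03), and over 21 named miRNAs the median was -0.05 against -0.27 pooled. miR-101, at 0.98 over all its parents, stood at -0.11 (-0.44 to 0.23) over the parents found in all groups.

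Between OVER and RES the share was lower in OVER, 4.69% in OVER and 9.05% in RES, a log2 ratio of -0.95 (-0.96 to -0.94). A tails again carried it, at -1.02, while T tails were higher in OVER, 0.332% against 0.290% in RES, at 0.19 (0.13 to 0.26). Among T reads, miR-106b held 178 in OVER and 5 in RES, with 5 parents passing the limit in OVER and 3 in RES. Without both leading miRNAs the log2 ratio was -0.57, from 1.80% in OVER and 2.68% in RES. Of 36 miRNAs, 32 were lower in OVER and 7 of these at least 2-fold lower, among them miR-191 at -1.38 (-1.68 to -1.09), miR-27a at -1.32 (-1.49 to -1.14), the unnamed miRNA at -1.24 (-1.74 to -0.77), miR-100 at -1.21 (-1.24 to -1.19) and miR-10b at -1.18 (-1.70 to -0.68). On the leading parent alone, miR-191 stood at -0.46 (-1.07 to 0.11), miR-27a at -0.47 (-0.68 to -0.26), the unnamed miRNA at -0.81 (-1.67 to -0.01), miR-100 at -0.43 (-0.45 to -0.40), miR-10b at -0.26 (-0.89 to 0.35) and miR-21 at -0.11 (-0.13 to -0.09). Over 24 named miRNAs whose leading parent had tailed reads in both libraries, the median was -0.24 against -0.72 pooled, and 21 were lower in OVER. The leading parent of miR-340, with 0 tailed reads in OVER and 274 in RES, was not counted. miR-200b and miR-200c were lower still on the leading parent, at -2.02 (-2.75 to -1.27) against -0.87 pooled. miR-340 stood at 0.22 (0.03 to 0.40) and miR-34c at 0.19 (0.03 to 0.35), but over the parents found in all groups these were 0.03 (-0.17 to 0.22) and 0.13 (-0.03 to 0.29). Of 131 single miRNA parents, 27 were 2-fold or more below RES and 6 were 2-fold or more above, where among the parents of all classes 22.2% were below, 7.19% above and 29.3% in either direction.

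**Figure D5:**
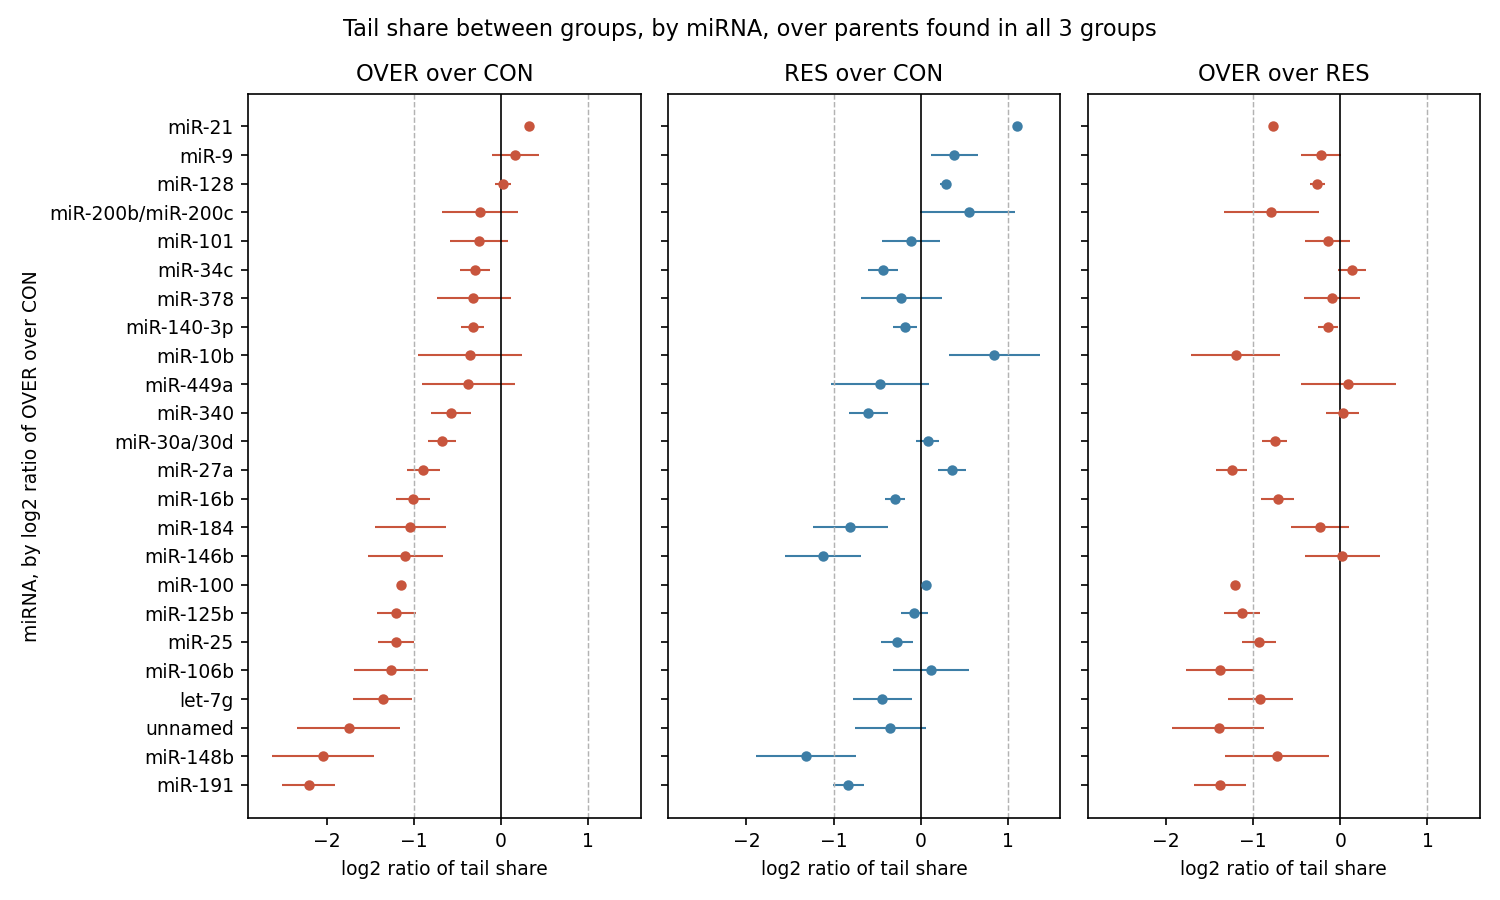
Log2 ratio of tail share for 24 miRNAs in OVER over CON, RES over CON and OVER over RES, over the parent sequences that pass the read limit in all 3 groups; points are ratios, bars exact 95% intervals for counting error, dashed lines 2-fold. miR-21, its parent forms pooled, is the point at 1.10 in the middle panel, and miR-191 is the lowest in the left panel. On the leading parent of miR-21, which ends in A where its most abundant form ends in C, the middle value was 0.06.

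By family, the miR-10 and miR-99 family, which includes miR-100, had a tail share of 6.55% in OVER, 15.8% in RES and 14.6% in CON. miR-100 alone held 16673 of its 17178 tailed reads in OVER, 74532 of 74946 in RES and 31834 of 32532 in CON. The larger unit of miR-10a and miR-10b had 0.421% in OVER, 0.737% in RES and 0.829% in CON. Within the family, the sequence of miR-99a proper had 8.13% in OVER, 10.4% in RES and 10.6% in CON, while miR-99b had 0.636% in OVER, 0.393% in RES and 0.9498% in CON. The miR-17-92 cluster and its paralogs had 5.61% in OVER, 8.05% in RES and 9.26% in CON, the miR-30 family 1.70% in OVER, 2.84% in RES and 2.72% in CON, and the let-7 family 1.44% in OVER, 2.02% in RES and 1.84% in CON. Low shares were found for miR-26 (0.282% in OVER, 0.288% in RES, 0.197% in CON), for miR-148 and miR-152 (0.211% in OVER, 0.202% in RES, 0.393% in CON) and for the imprinted DLK1-DIO3 domain (0.229% in OVER, 0.506% in RES, 0.537% in CON).

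miRNAs that mark cell types are given with their parent reads, which are raw counts from libraries of unequal depth. The germ cell miRNAs miR-34c and miR-449a, with 93719 parent reads in OVER, 96500 in RES and 61624 in CON, had a tail share of 0.794% in OVER, 0.693% in RES and 0.952% in CON. Epithelial miRNAs of the miR-200 family had 17890 parent reads in OVER, 4522 in RES and 14152 in CON and tail shares of 0.578% in OVER, 1.05% in RES and 0.723% in CON. The red blood cell miRNAs miR-451 and miR-486 passed the read limit in RES only, with 3524 parent reads and 143 tailed reads, and those tailed reads were all from miR-486. miR-223, of white blood cells, had 306 parent reads in OVER and 122 in CON, with 13 tailed reads in OVER and 7 in CON, and was below the limit in RES. The part of other cell types in the tail shares was not tested.

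Most other RNA classes of the same length had a lower tail share than the pooled miRNAs, whose tailed reads were mainly miR-21 and miR-100. The median over miRNAs with 1000 parent reads or more was lower, at 0.721% in OVER, 1.32% in RES and 1.01% in CON. Small nucleolar RNA was above that median in every group. Fragments antisense to annotated RNAs, at 1.03% in OVER, 0.756% in RES and 1.56% in CON, were above it in OVER and CON. Nuclear tRNA fragments of 20 to 24 nt had a tail share of 0.0125% in OVER, 0.0178% in RES and 0.0394% in CON, and rRNA fragments had 0.0571% in OVER, 0.0904% in RES and 0.143% in CON. Fragments of misc RNA had 0.0521% in OVER, 0.966% in RES and 0.6997% in CON, and 94.9% to 98.3% of their tailed reads ended in T. Small nucleolar RNA, with few reads, had 1.37% in OVER, 1.78% in RES and 1.79% in CON, all of it A. The exception was a group of annotated sequences outside these classes, at 50.4% in OVER, 77.9% in RES and 87.1% in CON, of which a single sequence with 2 added G bases, whose parent is annotated only as DNA, made up 87.3% of the tailed reads in OVER, 94.1% in RES and 94.5% in CON.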

How the data were processed

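Small RNA of 15 to 50 nt was selected and made into libraries with the NEBNext kit, per the labels' protocols. Each table deposited by the authors lists distinct sequences with their read counts, length, genome flag and annotation, per the file headers. The counts are raw. Not given in the sources used here are the aligner, trimming and genome build; the submitters' processing notes name edgeR without a version.

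A sequence without annotation and genome match was a member if removing 1 to 4 identical 3′ bases left an annotated miRNA of 20 to 24 nt with 100 reads or more. Tails of undetermined bases and antisense terms were left out. Tail share is tailed reads over tailed plus parent reads, with exact 95% Clopper-Pearson intervals. A log2 ratio of shares was given for parents with 20 tailed reads or more and for miRNAs with 100 or more in the pair. The limit that a count of 0 allows is 3 reads.

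Because the 3 tables of a group are identical, the permutation tests planned over samples were not run, and each group entered once. The text names members from the 12 with most reads, leading members with T, G and C tails, and the miRNAs with most tailed reads, with the highest and lowest tail shares, and with the ratios farthest from 0 in each comparison; other miRNAs were added as contrasts after their values were seen, and 1 miRNA that the rule names is not reported here and is left out of the figures by miRNA. Some miRNA names were read by eye from known mature sequences. Members and lists were chosen with earlier results of these data known.

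The finding of tails was tested on 300 made-up parents of random bases, where all 300 tails were recovered, with 0 false ones. The added base there always differed from the last base of the parent. Tails that repeat that base, as most tails in the data do, were therefore not tested. The ratios were tested on simulated counts for the 766 parents of all RNA classes found in both OVER and CON. Over the 180 with enough tailed reads, 98.9% of the intervals covered the simulated ratio. Python 3.11.15, pandas 2.3.3, scipy 1.17.1 and numpy 2.4.6 were used.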

Additional observations from a re-analysis of the deposited data

How the results depend on the processing

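No paired analysis was possible because the 3 tables of a group hold the same counts, and for that reason no replicate could be left out either. The log2 ratio of tail shares was -0.66 in OVER against CON, 0.29 in RES against CON and -0.95 in OVER against RES. With parents of 1000 reads or more it was 0.34 in RES against CON and -0.99 in OVER against RES. With parents of 22 nt only it was -0.79 in OVER against CON, 0.042 in RES against CON and -0.83 in OVER against RES. With oar- terms only it was -0.68 in OVER against CON, 0.37 in RES against CON and -1.05 in OVER against RES. Tails of 2 to 4 bases gave -1.54 in OVER against CON, 0.26 in RES against CON and -1.79 in OVER against RES. Tailed sequences of 10 reads or more gave 0.31 in RES against CON and -0.97 in OVER against RES, and counting all extensions in the denominator gave -0.93 in OVER against RES. Weighting parents by their CON reads gave -0.43 in OVER against CON, -0.049 in RES against CON and -0.38 in OVER against RES.

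Other alternatives were added after the data were seen. Without miR-21 and miR-100 the ratio was -0.80 in OVER against CON, -0.23 in RES against CON and -0.57 in OVER against RES. Without miR-21 alone it was -1.25 in OVER against CON, 0.073 in RES against CON and -1.33 in OVER against RES, and without parents that also carry another RNA class it was 0.31 in RES against CON. OVER stayed below CON and below RES in all 13 alternatives run, while RES against CON changed sign in 2. The ratios of named miRNAs were recomputed over parents found in all 3 groups: of 78 ratios, 71 were close, 2 moved and 5 turned in sign. The turned ones were miR-101 at -0.26 in OVER against CON, -0.11 in RES against CON and -0.15 in OVER against RES, miR-106b at -1.27 in OVER against CON, and miR-146b at 0.023 in OVER against RES. For miR-101 and miR-106b fewer parents enter by construction. With the leading parent of each miRNA only, and only where both libraries held tailed reads on it, of 65 ratios 23 were close, 33 moved and 9 turned in sign. Those were, in OVER against CON, miR-140-3p at 0.11, miR-106b at -1.47, miR-10b at 0.71, miR-200b and miR-200c at 0.15 and miR-21 at -0.053, and, in RES against CON, miR-140-3p at 0.20, miR-148a at 0.11, miR-30a and miR-30d at -0.27 and the unnamed miRNA at 0.44. By construction this leaves out the other forms of each miRNA. It also leaves out the leading parent of miR-340 in OVER, which had 0 tailed reads there, 176 in CON and 274 in RES. The pooled miR-340 stood at -0.39 in OVER against CON and 0.22 in OVER against RES.

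The number of parents 2-fold or more apart was 45 in OVER against CON, 21 in RES against CON and 33 in OVER against RES. It was 24, 6 and 14 in those comparisons with parents of 1000 reads or more, 26, 9 and 11 with parents of 22 nt, 22, 6 and 18 with oar- terms only, and 14, 5 and 8 with 100 tailed reads or more, where fewer parents are tested. At 1.5-fold it was 38 in RES against CON and 57 in OVER against RES, and with the shortest parent 52 in OVER against RES. In RES against CON, 4 of the 21 were higher and 17 lower in RES, against 10 and 13 with the shortest parent, 4 and 5 with parents of 22 nt, 3 and 3 with oar- terms, 0 and 5 with 100 tailed reads or more, 6 and 12 with tailed sequences of 10 reads or more, and 5 and 9 with parents found in all groups. In OVER against RES, 6 were higher and 27 lower in OVER, against 1 and 51 with the shortest parent, 0 and 11 with 22 nt, 0 and 18 with oar- terms, 1 and 13 with 1000 reads or more, and 2 and 28 with parents found in all groups. In OVER against CON, 1 was higher and 44 lower, against 5 and 32 with tailed sequences of 10 reads or more. Depth limits the rare members, many of which rest on 1 read.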
